A study of Homo sapiens with 4 samples.

Results

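The genes described here were 10 markers of the integrated stress response and the unfolded protein response: ATF4, DDIT3, ATF3, ASNS, TRIB3, CHAC1, HSPA5, XBP1, HERPUD1 and PPP1R15A. They were chosen by name, as every non-control probe whose gene name in the array files was one of these symbols. This gave 14 of the 50599 probes on the array, 4 of them for ATF3, 2 for CHAC1 and 1 for each other gene. All 10 genes were among the 15454 gene names tested. The RNA came from GIST-T1 cells, a human line established from a stromal tumor of the gastrointestinal tract (GIST). One group received a mirVana mimic of miR-335, a synthetic stand-in for the mature microRNA, and the other received the mirVana mimic Negative Control #1. Both groups had 100 pmol of RNA delivered by nucleofection, both were collected 48 h later, and each had 2 one-color arrays. No untransfected or stressed cells were among the samples, so the values describe cells that had all been electroporated. A second line in the description of the mimic samples names miR-34a, whereas their titles, the first line of that description and the transfection field name miR-335. The latter was followed, and the amount of miR-335 in the cells was not measured by these arrays. The labels do not say whether the replicates were separate cultures, so the p-values measure the spread between arrays, which may be technical.

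The integrated stress response begins with kinases that phosphorylate the translation factor eIF2. This lowers general protein synthesis while ATF4, a transcription factor whose mRNA carries upstream open reading frames, is translated more, and ATF4 then raises genes for amino acid supply and for cell death. The unfolded protein response of the endoplasmic reticulum shares the kinase PERK with it and adds a pair of branches through ATF6 and through IRE1, which splices XBP1 mRNA. An array reads mRNA levels, so neither the translation of ATF4 nor the splicing of XBP1 was measured.

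The mature strands of the microRNA are shown because the comparison is between cells with and without the mimic. Capitals mark the seed, bases 2 to 8, through which a microRNA pairs with its targets. The sequences and GRCh38.p14 positions are from RefSeq, at chr7:130496126-130496148 for the 5p strand and chr7:130496162-130496183 for the 3p strand, both on the plus strand.
hsa-miR-335-5p: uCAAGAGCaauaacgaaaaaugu
hsa-miR-335-3p: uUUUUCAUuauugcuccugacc
The labels do not name the strand of the mimic, so the 60-base probe sequences were searched for matches to both seeds (7mer-m8, pairing bases 2 to 8, and 7mer-A1, pairing bases 2 to 7 followed by an A). Of the 14 probes, 1 held a match, a 7mer-A1 match to the 3p strand in the last bases of the ASNS probe. Its end is given with the match in capitals.
ASNS probe, bases 46 to 60: cttgggttTGAAAAA
Over all probes of the array, 1.277% held this kind of match to the 3p strand and 0.464% to the 5p strand, while 7mer-m8 matches were held by 1.221% and 0.437%. The probes cover a small part of each transcript, and matches outside them were not analysed here.

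Promoter stretches are shown wherever a known stress element was found in a member, since these elements define the arms of the pathway to which the genes belong. All 10 genes had RefSeq promoter windows of 300 bases (250 before to 50 after a start, GRCh38.p14), 17 windows in all. Both strands were searched for ERSE (CCAAT, 9 bases, CCACG), to which ATF6 binds together with NF-Y, for ERSE-II (ATTGGNCCACG), and for the UPRE (TGACGTGG). The C/EBP-ATF composite site (TGATGNAA), at which ATF4 acts, and the cyclic AMP response element CRE (TGACGTCA) were also searched. The motif is in capitals. The CRE reads the same on both strands, and no element overlapped another in the windows printed.
HSPA5, ERSE, chr9:125241386-125241414, minus strand: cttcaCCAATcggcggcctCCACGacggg
XBP1, ERSE, chr22:28800598-28800626, minus strand: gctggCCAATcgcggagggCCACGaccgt
HERPUD1, ERSE-II, chr16:56932020-56932040, plus strand: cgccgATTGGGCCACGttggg
ASNS, composite site, chr7:97872464-97872481, minus strand: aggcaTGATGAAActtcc
ATF3, composite site, chr1:212565211-212565228, plus strand: caggaTGATGGAAggctg
HERPUD1, composite site, chr16:56931961-56931978, minus strand: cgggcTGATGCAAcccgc
CHAC1, composite site, chr15:40953257-40953274, minus strand: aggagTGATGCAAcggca
PPP1R15A, CRE, chr19:48872358-48872375, plus strand: cttcgTGACGTCAgcacg
A gene was counted if any of its windows held the element. ERSE was held by 2 members, HSPA5 and XBP1, and by 0.0916% of all 27305 genes with windows. ERSE-II was held by 1 member and 0.0696% of genes. The composite site was held by 4 members (ASNS, ATF3, CHAC1 and HERPUD1) and 4.4571% of genes, and the CRE by 1 member and 2.2487%. The UPRE was held by 0 members and 0.9266% of genes. The list of members was written with the pathway in mind, so these shares describe it and were not tested.

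To learn whether the mimic moved this stress program, each member was compared between the mimic and control arrays. On every array all 14 probes were well above background, and none of their 23 spots was saturated. No member passed the test in either direction. The values below are log2 intensities relative to the array's 75th percentile, and a change is the mimic mean minus the control mean on that log2 scale. In limma, 0 of 14 probes and 0 of 10 genes were lower or higher at an adjusted p of 0.05, where 1.15% of all 20328 tested probes were lower and 1.47% were higher. At an unadjusted p under 0.05 there were 2 of 14 probes, both for ATF3, against 25.3% of all tested probes. The study's methods name a t-test for continuous variables, but no test for the arrays. With no adjustment this methods' t-test passed 1 of the 10 genes, ATF4, and 4115 of all 20328 tested probes. After adjustment it passed 0 genes and 0 probes. The 0 members over 1.5-fold, the fold limit named in the study, stand against 3.9% of all tested probes. The 95% interval lay within 1.5-fold either way for all 14 probes, as it did for 83.2% of tested probes, and the bounds ran from −0.49 to 0.37. The median change of the 10 genes, each by its brightest probe, was −0.04 against −0.02 over all tested genes, and their median absolute change was 0.05 against 0.10. For any 1 probe, the smallest two-sided p that exact permutation of these 4 arrays allows is 0.333.

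This result depended on the scale. When the arrays were scaled to the external spike-in RNAs, the median change of all tested probes moved from −0.01 to −0.20, and 7 of the 10 genes then passed as lower (ATF4, DDIT3, ATF3, ASNS, XBP1, HERPUD1 and PPP1R15A), with changes from −0.19 to −0.27. On that scale 44.6% of all tested probes were lower with the mimic. The spike-in scale rested on 7 of 10 spike-in probes, whose median signal differed between the groups by 0.19. TRIB3 and HSPA5 turned from positive to negative changes on it, at −0.12 and −0.11, and did not pass. Relative to the median shift of all probes, the 10 genes lay between −0.11 and 0.09 on the spike-in scale.

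**Figure D1:**
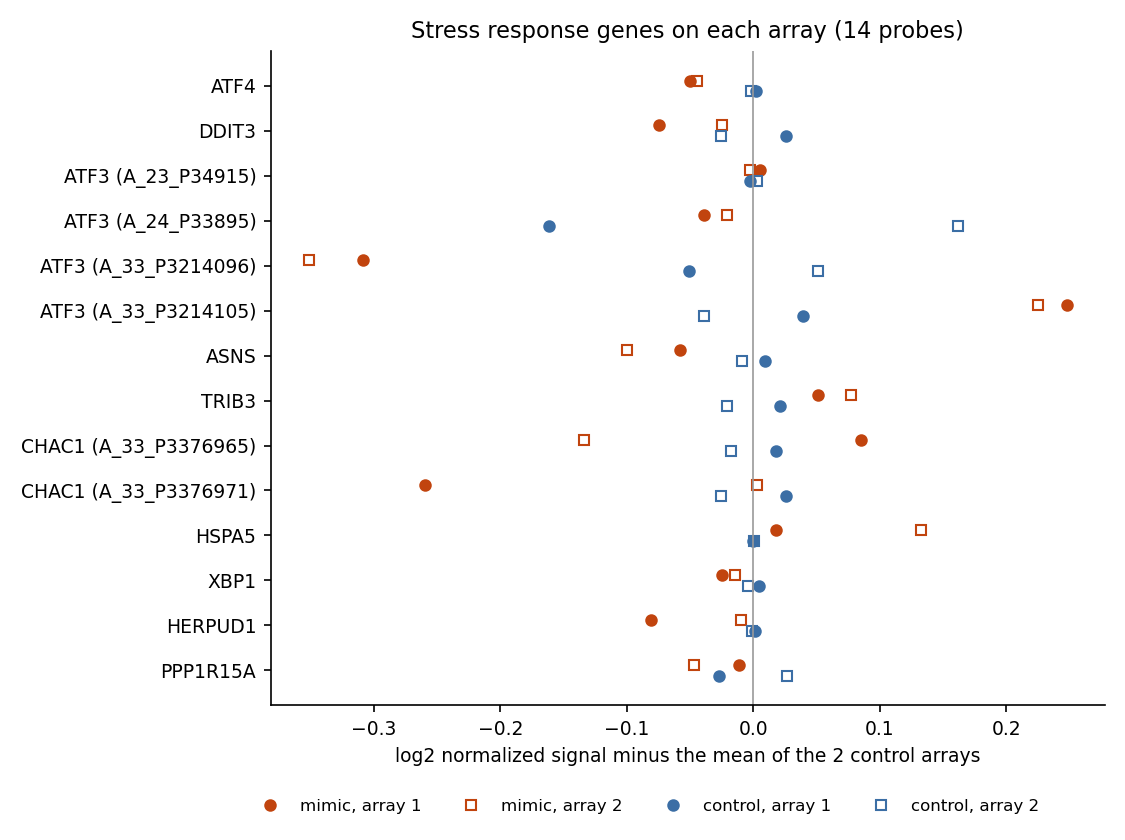
Log2 normalized signal of the 14 probes on each array, drawn as the difference from the mean of the 2 control arrays (horizontal axis, log2 units), with mimic arrays in orange and control arrays in blue. A pair of ATF3 probes has the mimic arrays apart from the controls in opposite directions, while for ATF4, XBP1 and the other ATF3 probe with a bright signal (A_23_P34915) all 4 arrays lie close to 0.

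ATF4, the transcription factor at the center of the response, gave 7.24 and 7.25 on the mimic arrays and 7.30 and 7.29 on the control arrays (chr22:39918577-39918636, hg19, plus strand). Both mimic arrays were below both controls, by a margin of a few hundredths. The change was −0.05 (SE 0.04), with a 95% interval from −0.15 to 0.06 and an adjusted p = 0.465. In the deposited intensities this was 28751 and 27820 with the mimic against 28086 and 28464 in the control, which overlap before scaling. Of all tested probes, 25.8% had a smaller absolute change.

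DDIT3, also known as CHOP, is the transcription factor that links prolonged stress to apoptosis. Its probe read 3.66 and 3.71 with the mimic and 3.76 and 3.71 in the control, and the groups overlapped. The change was −0.05 (SE 0.04, 95% interval from −0.18 to 0.08, adjusted p = 0.530). The hg19 span in the files, chr12:57911200-57911526 on the minus strand, is 327 bases for a probe of 60, longer than the probe itself.

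ATF3 is a further transcription factor of the response and the only member with probes that differed in opposite directions without overlap between the groups. The brightest, A_23_P34915 (chr1:212793856-212793915), read 3.39 and 3.39 with the mimic and 3.39 and 3.39 in the control. Its change was 0.00 (SE 0.04, 95% interval from −0.10 to 0.11), smaller in size than that of all but 0.595% of tested probes. The sign of a change this small turned with the setting.

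The other 3 ATF3 probes had deposited intensities between 84.1 and 135.5. A_33_P3214096 (chr1:212792519-212792578) read −0.94 and −0.99 with the mimic and −0.69 and −0.58 in the control. The mimic arrays were both lower, with a change of −0.33 (SE 0.05, 95% interval from −0.49 to −0.17) that did not pass after adjustment (adjusted p = 0.0809). With normexp background correction it was −0.18. A_33_P3214105 (chr1:212788502-212788561), the probe nearest the start of the gene, went the other way.

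This upstream probe read −0.49 and −0.51 with the mimic and −0.69 and −0.77 in the control, so the mimic arrays were both higher. The change was 0.24 (SE 0.05, 95% interval from 0.10 to 0.37, adjusted p = 0.102), and 0.15 with normexp and 0.05 with spike-in scaling. A_24_P33895 (chr1:212792837-212792896) read −0.97 and −0.95 with the mimic, between the control values of −1.09 and −0.77, with a change of −0.03 (adjusted p = 0.897). The array files assign different transcripts to these probes. A_33_P3214096 is assigned to NM_001040619 and NM_001206486. A_33_P3214105 is assigned to NM_001030287, NM_001206484, NM_001206488 and NM_001674, and the remaining pair to NM_001040619 and the last 3 of these. Whether the opposite differences reflect transcript forms was not tested.

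Among the targets that ATF4 drives directly, ASNS makes asparagine and is a classic readout of amino acid shortage. Its probe (chr7:97481461-97481520), which holds the 3p seed match shown above, read 8.61 and 8.56 with the mimic and 8.67 and 8.65 in the control. Both mimic arrays were lower, and the change of −0.08 (SE 0.04, 95% interval from −0.19 to 0.04) had an adjusted p = 0.309, the smallest among the brightest probes of the 10 genes.

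TRIB3, a pseudokinase that restrains ATF4 and CHOP in a feedback loop, gave 7.95 and 7.97 with the mimic and 7.92 and 7.88 in the control (chr20:378107-378166). The mimic arrays were both higher, by 0.06 on average (SE 0.04, 95% interval from −0.05 to 0.18, adjusted p = 0.393). This direction is the one that turned on the spike-in scale.

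CHAC1, an enzyme that degrades glutathione and lies downstream of ATF4 and ATF3, had the largest difference between group means among the brightest probes. Its brighter probe (chr15:41248631-41248690) read 3.15 and 3.41 with the mimic and 3.43 and 3.38 in the control. A single array, mimic 1, was apart from the other 3, and the replicate difference of 0.26 exceeded the change of −0.13 (SE 0.11, 95% interval from −0.43 to 0.18, adjusted p = 0.498). Without mimic replicate 1 the change was 0.00. The second probe (chr15:41247814-41247873) read −0.02 and −0.24 with the mimic and −0.09 and −0.12 in the control, with a change of −0.02 (adjusted p = 0.883). On this probe mimic 1 was the highest array, not the lowest. The genes whose 4-array pattern was nearest that of the brighter CHAC1 probe were NUFIP2, NAT8L and FERMT2, at root mean square differences of 0.0065, 0.0116 and 0.0130 log2 units among 18771 probes compared. Of these probes, 262 were within 0.05.

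PPP1R15A, also called GADD34, is the phosphatase subunit that ends the response by removing the phosphate from eIF2. It read 1.28 and 1.24 with the mimic and 1.26 and 1.32 in the control, overlapping, with a change of −0.03 (SE 0.04, 95% interval from −0.15 to 0.10, adjusted p = 0.701). Like that of DDIT3, its probe spans more than 60 bases in hg19 (chr19:49378127-49378901).

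The unfolded protein response side was read by 3 genes, each with an ERSE or ERSE-II in its promoter as printed above. HSPA5, also called BiP or GRP78, is the main chaperone of the endoplasmic reticulum lumen. Its probe (chr9:127997149-127997208) gave 2.03 and 2.15 with the mimic and 2.01 and 2.02 in the control. Both mimic arrays were above the controls, mimic 1 only just, and the change of 0.08 (SE 0.06, 95% interval from −0.09 to 0.24) had an adjusted p = 0.457.

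XBP1, the transcription factor activated by IRE1, had the most spots of the members, 10 per array, of which 8 to 10 were usable. Averaged over its spots, it read 5.94 and 5.95 with the mimic and 5.97 and 5.96 in the control, and the spots of 1 array varied by an SD of 0.0202 to 0.0274. The mimic means were lower by 0.02 (SE 0.04, 95% interval from −0.12 to 0.09, adjusted p = 0.760), about the SD of the spots on an array. The probe (chr22:29190733-29190792) is assigned to both NM_001079539 and NM_005080, so the spliced and unspliced forms cannot be told apart with it.

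HERPUD1, a membrane protein that helps clear misfolded proteins from the endoplasmic reticulum, read 5.51 and 5.58 with the mimic and 5.59 and 5.59 in the control (chr16:56977700-56977759). Both mimic arrays were lower, with 1 mimic array next to the controls. The change was −0.05 (SE 0.04, 95% interval from −0.17 to 0.08, adjusted p = 0.565).

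**Figure D2:**
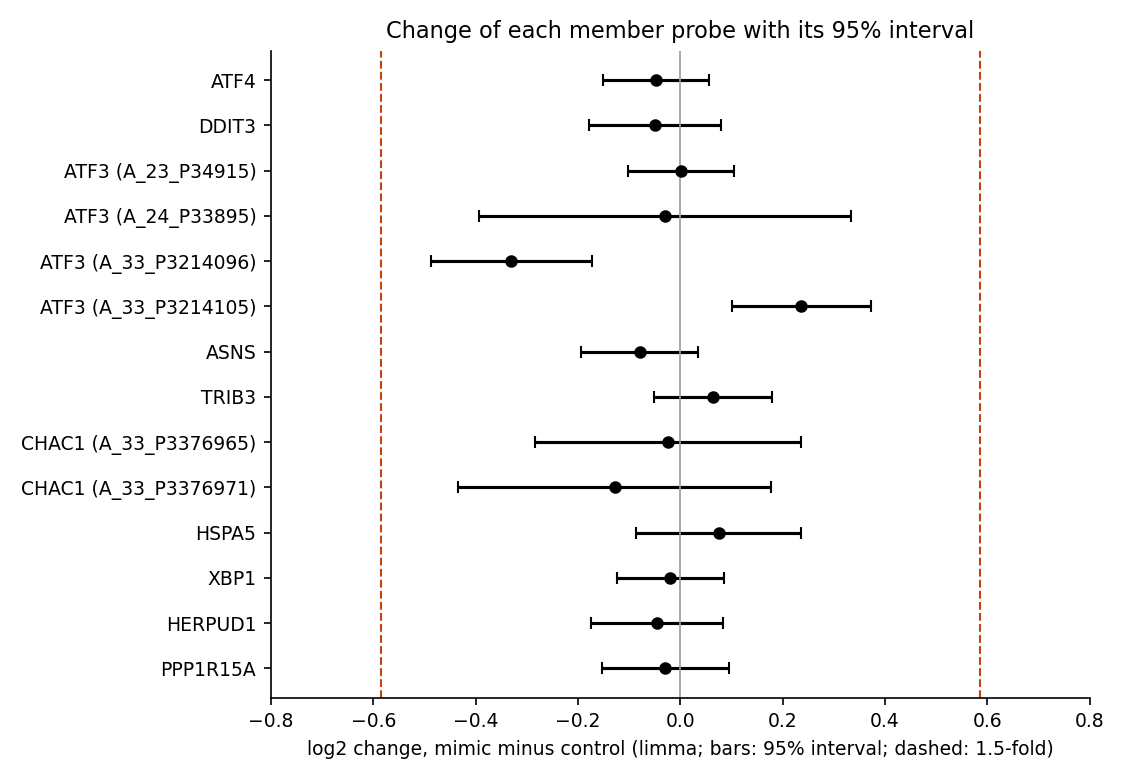
Change of each of the 14 probes (mimic minus control, log2 units) with its 95% interval from limma, with dashed lines at 1.5-fold in either direction. All intervals lie inside the dashed lines, and those of 2 ATF3 probes (A_33_P3214096 and A_33_P3214105) leave out 0, in opposite directions.

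Counted by overlap, 5 of the 14 probes had both mimic arrays below both controls, 3 had both above, and 6 overlapped. Over all tested probes 32.5% were lower in this sense and 27.1% were higher. By the brightest probes, ATF4, ASNS, XBP1 and HERPUD1 were lower without overlap, TRIB3 and HSPA5 were higher, and the remaining 4 genes overlapped. In intensities before scaling, ATF4, ASNS and HERPUD1 overlapped between the groups. XBP1 then had both mimic arrays above both controls (11655 and 11322 against 11211 and 11320). TRIB3 and HSPA5 were higher without overlap before scaling too. The largest difference between replicates was 0.26 for the mimic (CHAC1) and 0.32 for the control (ATF3, A_24_P33895). Over all tested probes the median difference was 0.06 for the mimic and 0.06 for the control. The median SE of the brightest probes was 0.04 against 0.05 over all tested genes.

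The wider pathway was then examined with 3 lists of genes that exclude the members, each gene again read by its brightest probe. Among the sensors, eIF2 kinases and phosphatase partners 1 of 22 tested genes was lower and 0 were higher at an adjusted p of 0.05, with a median change of −0.03. Among ATF4 targets 1 of 39 was lower and 0 were higher, with a median of −0.01, and among XBP1 and ATF6 targets 0 of 32 were lower or higher, with a median of −0.01. Over all tested genes 207 of 15454 were lower and 219 were higher, with a median of −0.02. At an unadjusted p under 0.05 the lists had 4, 5 and 0 genes lower and 0, 6 and 0 higher, in the same order, where 2259 of all 15454 tested genes were lower and 1750 were higher. The listed genes left untested were ERN1 (IRE1) and FGF21, not well above background on any array, and CREB3L3, well above background on 1 control array.

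**Figure D3:**
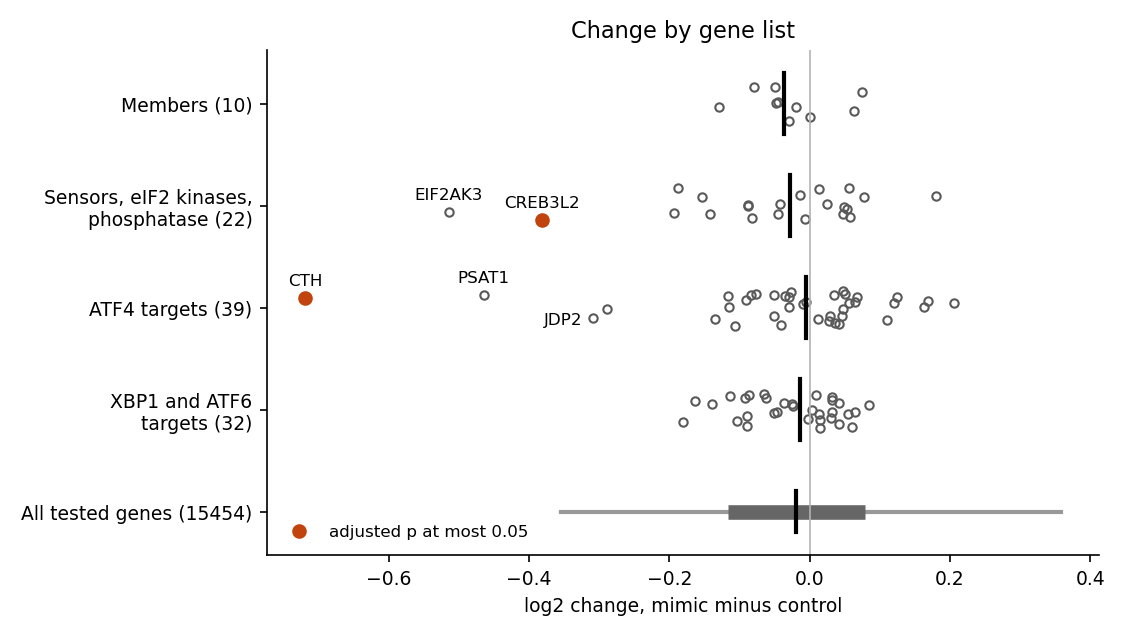
Change of each gene by list (mimic minus control, log2 units, brightest probe), with a vertical bar at each list's median and filled points for adjusted p at most 0.05. The lowest row gives all tested genes as the median, the 25th to 75th percentile (thick bar) and the 5th to 95th percentile (thin bar). Most listed genes lie within the thin bar, and the 2 that passed, CREB3L2 and CTH, lie to its left.

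CTH, which makes cysteine from cystathionine, was the ATF4 target that fell. It read −0.29 and −0.26 with the mimic and 0.46 and 0.43 in the control (chr1:70905041-70905100), a gap far wider than the spread within either group. The change was −0.72 (SE 0.04, adjusted p = 0.0314), a level 1.65-fold lower. With any 1 array left out the change stayed between −0.74 and −0.70, while the adjusted p was 0.136 to 0.189 and 0 to 8 probes of the whole array passed in place of 532. Without the filter on dim probes, where 0 probes of the array passed, the change was −0.72 (adjusted p = 0.410). Over all alternatives with adjustment the adjusted p ran from 0.000692 to 0.410.

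The ATF4 targets with the next largest differences, PSAT1 and JDP2, just missed the threshold. PSAT1, an enzyme of serine synthesis, read 5.64 and 5.65 with the mimic and 6.16 and 6.06 in the control, with a change of −0.46 (adjusted p = 0.0504), and its second probe gave −0.41 (adjusted p = 0.0543). JDP2, a bZIP factor related to ATF3, read 3.93 and 3.94 with the mimic and 4.27 and 4.22 in the control, with a change of −0.31 (adjusted p = 0.0648). Both genes had the mimic arrays below the controls without overlap. Of the 17 alternatives, leaving aside the t-test without adjustment, PSAT1 passed under 7 and CTH under 9. For PSAT1 these included quantile normalization (adjusted p = 0.0466) and the mean of its probes (adjusted p = 0.042). After adjustment JDP2 passed with normexp, spike-in scaling and an intensity trend. Over all tested probes these settings passed 1550, 9592 and 3083, against 532 as reported. PHGDH, PSPH, SHMT2 and MTHFD2, the other serine and one-carbon enzymes in the list, had changes between −0.01 and 0.06.

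On the other side of 0, and chosen after the values were seen, were GDF15, a secreted stress factor, at 0.21 (adjusted p = 0.106), SLC7A5, an amino acid transporter, at 0.17 (adjusted p = 0.118), and DDIT4, an inhibitor of mTORC1, at 0.16 (adjusted p = 0.125). None passed the test, and each had both mimic arrays above both controls. With an intensity trend in limma's variance all 3 passed (adjusted p = 0.00417, 0.0107 and 0.00997), as did SLC3A2, the partner of SLC7A5, at 0.12 (adjusted p = 0.0191). That setting passed 3083 of all 20328 tested probes (1736 lower, 1347 higher), against 532 as reported. The 9 aminoacyl-tRNA synthetases of the list had changes from −0.11 to 0.05, of which 0 passed, with an unadjusted p under 0.05 for 0.

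Upstream, CREB3L2 fell. It is an endoplasmic reticulum membrane transcription factor of the ATF6 kind. It read 4.23 and 4.20 with the mimic and 4.59 and 4.60 in the control (chr7:137559882-137559941), with a change of −0.38 (SE 0.04, adjusted p = 0.0431), a level 1.30-fold lower. Its second probe gave −0.18 (adjusted p = 0.253), and the mean of both probes did not pass (adjusted p = 0.0767). The change stayed between −0.40 and −0.37 with any 1 array left out (adjusted p from 0.162 to 0.20) and was −0.38 without the filter on dim probes (adjusted p = 0.478), settings under which almost no probe of the array passed. Over all alternatives with adjustment the adjusted p ran from 0.00018 to 0.478.

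EIF2AK3, the gene of PERK, had the largest difference of its list on the reported scale but did not pass. It read −2.01 and −1.87 with the mimic and −1.49 and −1.36 in the control (chr2:88856582-88856641), with a change of −0.51 (SE 0.08, 95% interval from −0.74 to −0.29, adjusted p = 0.0737). The groups did not overlap. This was a dim probe, with deposited intensities of 47.2 to 70.7, and with normexp background correction the change was −0.22 and passed (adjusted p = 0.0485), smaller than that of CREB3L2 at −0.40. With normexp 1550 of all tested probes passed, against 532 as reported. EIF2S1, the eIF2 subunit that the kinases phosphorylate, had a change of −0.19 (adjusted p = 0.205). By their brightest probes, the remaining kinases EIF2AK1, EIF2AK2 and EIF2AK4 had changes of 0.18, −0.04 and −0.01. The 5 eIF2B subunits, read in the same way, had changes from −0.01 to 0.06. The dimmer EIF2B3 probes gave 0.15 (adjusted p = 0.138), with both mimic arrays above both controls, and 0.02 (adjusted p = 0.808).

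Among the XBP1 and ATF6 targets the 3 largest differences were those of EDEM1 at −0.18 (adjusted p = 0.355), ERO1LB at −0.16 (adjusted p = 0.257) and DNAJC10 at −0.14 (adjusted p = 0.277). EDEM1 acts in the disposal of misfolded glycoproteins, and ERO1LB and DNAJC10 in disulfide chemistry. The size of these changes depended on single arrays, though each stayed negative with any 1 array left out. With 1 array left out they ran from −0.28 (without mimic replicate 1) to −0.08 (without mimic replicate 2) for EDEM1. They ran from −0.24 (without control replicate 1) to −0.09 (without control replicate 2) for ERO1LB, and from −0.20 (without control replicate 2) to −0.08 (without control replicate 1) for DNAJC10. The 8 chaperones of the list, grouped after the values were seen, had changes from −0.14 to 0.06. The 9 genes of endoplasmic reticulum-associated degradation had a median change of −0.09, and 0 passed, also at an unadjusted p under 0.05. Of these 9 genes 8 had negative changes, as did 8549 of all 15454 tested genes, and this was 1 of several groups formed after the values were seen.

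**Figure D4:**
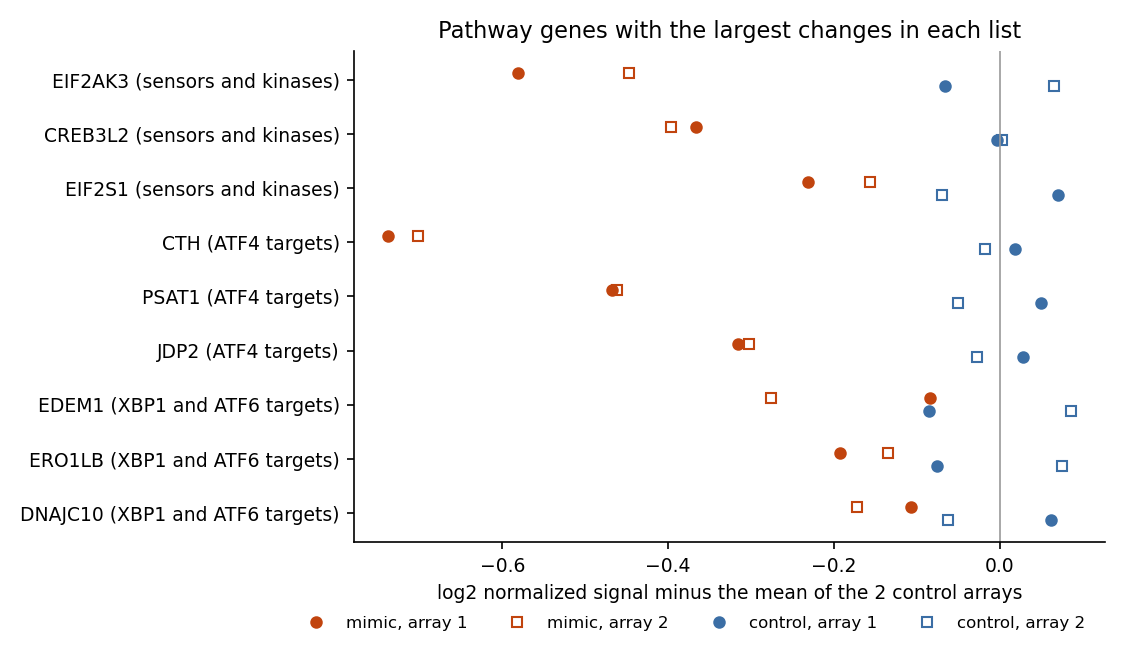
Log2 normalized signal on each array of the 3 genes with the largest differences in each pathway list, drawn as the difference from the mean of the 2 control arrays (horizontal axis, log2 units; mimic in orange, control in blue). CTH, PSAT1, EIF2AK3, CREB3L2 and JDP2 have both mimic arrays well to the left of both controls, whereas the arrays of EDEM1 overlap.

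The identity of the cells was checked with markers. All 8 genes that mark GIST and interstitial cells of Cajal were tested. KIT, the receptor that defines most GISTs, read 7.14 and 7.17 with the mimic and 7.49 and 7.48 in the control, lower without overlap by its brightest probe but not past the threshold (−0.33, adjusted p = 0.0512). Its dimmer probes gave −0.14 (adjusted p = 0.161), lower without overlap, and −0.06 (adjusted p = 0.674), with the groups overlapping. HAND1 was lower with the mimic (−0.92, adjusted p = 0.0314). The brightest ANO1 probe gave −0.07 (adjusted p = 0.349), while its dimmer probe was higher without overlap (0.47, adjusted p = 0.0533). The marker counts that follow use the brightest probe of each gene. Of the 8 markers 7 had negative changes, 6 were lower without overlap and 3 were lower at an unadjusted p under 0.05, with a median change of −0.09, where 8549, 5331 and 2259 of all 15454 tested genes did the same and 207 were lower at an adjusted p of 0.05. Of 10 markers of smooth muscle, epithelium, blood and endothelium, only DES, ACTG2 and EPCAM were tested, with changes of −0.25, −0.01 and −0.89 (adjusted p = 0.177, 0.937 and 0.287), and MYH11, CDH1, KRT20, PTPRC, CD3E, PECAM1 and VWF were not well above background on both arrays of either group. Their part in the results above was not tested. On each array 40.3% to 41.9% of probes were well above background, 0 spots were saturated, and all 4 arrays were on 1 slide. A lower share of responding cells and less RNA per cell cannot be told apart in such bulk samples.

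**Figure D5:**
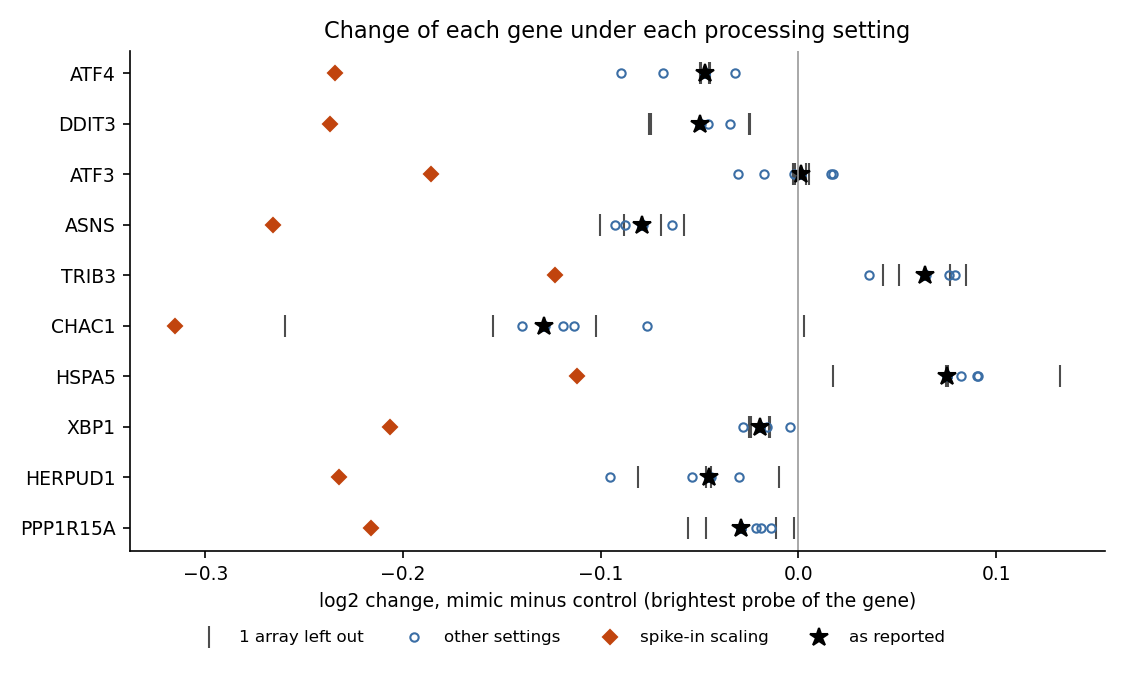
Change of each of the 10 genes (mimic minus control, log2 units, brightest probe) as reported (star), with 1 array left out (tick), with spike-in scaling (diamond) and under the other settings (circle). Spike-in scaling places every gene to the left of 0, and the changes of ATF3 and CHAC1 cross 0 under other settings too.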

How the data were processed

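Total RNA (100 ng per array) was hybridized to a one-color Agilent human array. Per the file headers, the deposited scanner files hold spot intensity from Feature Extraction 10.7.3.1, background-subtracted and detrended within each array and not normalized between arrays; the deposited value table holds the same intensity. Flags came from the same files. Outlier spots were dropped, the spots of a probe averaged on the log2 scale, and each array's 75th percentile over non-control probes subtracted. A probe entered the test if both arrays of 1 or both groups read it well above background and all 4 arrays gave a value (20328 probes). The test was limma 3.58.1 (lmFit and eBayes, no covariates; R 4.3.3), with Benjamini-Hochberg adjustment over all tested probes at 0.05. The number of arrays limits the precision.

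Members and lists were chosen with earlier results of these data known. The rule for named genes took all members; from each list the genes past the threshold or, if under 3, the 3 with the largest difference among probes well above background on all arrays; and the 3 patterns nearest that of the member with the largest difference. Functional subgroups were formed after values were seen. Names and hg19 positions were kept as the files give them. Symbols matched RefSeq (GRCh38.p14) for 10 of 10 members and, synonyms included, for every listed gene. Whether probes lie in untranslated regions was not analysed here. Figures were drawn with matplotlib 3.10.9.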

Additional observations from a re-analysis of the deposited data

How the results depend on the processing

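In limma, the 0 members that passed stayed at 0 under 15 of 17 alternatives. The exceptions were spike-in scaling (7) and the methods' t-test without adjustment (1, ATF4; after adjustment 0). The sensor list (1 as reported) gave 2 with normexp background correction, 16 with spike-in scaling, 0 without the filter on dim probes, 4 (3 lower, 1 higher) with an intensity trend, 5 (3 lower, 2 higher) and 0 with the methods' t-test before and after adjustment, and 0 with the mean of a gene's probes. The ATF4 targets (1) gave, for the same settings, 3, 22, 0, 7 (3 lower, 4 higher), 17 (9 lower, 8 higher), 0 and 2, and 2 each with quantile normalization, the percentile over detected probes and the filter on all 4 arrays, the second gene being PSAT1. The XBP1 and ATF6 targets (0) gave 19 with spike-in scaling, 1 with a trend (DERL3, lower) and 3 (1 lower, 2 higher) with the unadjusted methods' t-test. Over all tested probes, where 532 passed as reported, normexp passed 1550, spike-in scaling 9592 and an intensity trend 3083. The methods' t-test passed 4115 before adjustment and 0 after, and 0 passed without the filter on dim probes. Quantile normalization passed 505, the percentile over detected probes 531 and the filter on all 4 arrays 588. The mean of a gene's probes passed 476 gene names. Member probes without overlap went from 8 to 13 with spike-in scaling and to between 10 and 12 with 1 array left out, where an arm of 1 array separates more easily. The share of all probes without overlap was not computed for these settings, so these counts are not read as a trait of the members. With spike-in scaling the median change of all tested probes was −0.20, and 44.6% of them were called lower. Leaving out 1 array gave 0 calls in every list, and between 0 and 8 (532 as reported) over all probes, where the lone array was taken to vary like the other group.

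With the replicate number as a block the members stayed at 0, the sensor list fell to 0, the ATF4 targets to 0 and all probes to 0. The labels do not say what a number shares, and the correlation of same-numbered deviations across probes was 0.03. A block on slide or scan day was not run, since there was 1 slide and 1 scan time.

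Small changes reversed in 12 cases. TRIB3 gave −0.12 and HSPA5 −0.11 with spike-in scaling. ATF3 (A_23_P34915) gave −0.0176 with normexp, −0.19 with spike-in scaling, −0.0021 from the value table and −0.0306 as a mean of probes, and ran from −0.0027 (without mimic replicate 1; −0.0015 without control replicate 1) to 0.0051 with 1 array left out. ATF3 (A_24_P33895) gave 0.0050 with normexp and ran from −0.19 to 0.13 (without control replicate 2). CHAC1 ran from −0.13 to 0.0854 (A_33_P3376965, without mimic replicate 2) and from −0.26 to 0.0026 (A_33_P3376971, without mimic replicate 1). The cause was not tested.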

Other observations

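Seed matches were also read in the 162 probes of the pathway and marker lists, and 4 held one. Over all probes of the array, 7mer-m8 and 7mer-A1 matches were held by 0.437% and 0.464% for the 5p strand. For the 3p strand these shares were 1.221% and 1.277%. The EIF2B5 probe held the 7mer-m8 match to miR-335-5p, the ATF5 and SLC7A11 probes a 7mer-A1 match to the same strand, and an IARS probe a 7mer-A1 match to miR-335-3p. They are shown with the match in capitals.
EIF2B5: agcatgaaGCTCTTGgtatttcc
ATF5: aacctggtCTCTTGAatttcaaa
SLC7A11: tatggaaaCTCTTGAtgcatgtg
IARS: ttttggtgTGAAAAAtacagagc
EIF2B5, a subunit of the exchange factor that phosphorylated eIF2 blocks, had a change of 0.05 (adjusted p = 0.464), and ATF5, a bZIP factor of the mitochondrial stress response, one of 0.12 (adjusted p = 0.164). SLC7A11, the cystine transporter, had a change of −0.12 (adjusted p = 0.397). The IARS probe with the match, not the brightest of its gene, had a change of 0.01 (adjusted p = 0.913). None of these passed the test.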
